A study of Homo sapiens with 8 samples.

Results

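The genes described here are 10 components and outputs of the NF-kB pathway, namely the subunits RELA, RELB, NFKB1 and NFKB2, the inhibitors NFKBIA and NFKBIE, the feedback regulators TNFAIP3 and BIRC3, and the outputs ICAM1 and IL18. They were taken by symbol from a table of raw read counts and make up 10 of its 15745 named genes. The table came from RNA-seq of HuH7 cells, a human hepatoma cell line, labelled wild type in all libraries. All cells went through OGD/R, in which oxygen and glucose are withdrawn and then restored, with 6 h at 1% oxygen in medium without glucose followed by normal oxygen. For 6 h of the reoxygenation the medium held dimethyl sulfoxide, the solvent (I/R+DMSO, n = 4), or the ginsenoside Rk2, a saponin from ginseng, at 20 µM (I/R+Rk2, n = 4). Cells without OGD/R were not analysed here, so the values compare Rk2 with solvent and do not measure the response to OGD/R itself. The labels do not say whether the 4 libraries of a group came from separate cultures, and the p-values measure the spread between these libraries, which may be technical.

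NF-kB is a family of dimeric transcription factors that is held in the cytoplasm by inhibitors of the IkB family. Signals from receptors of the TNF, interleukin-1 and Toll-like families activate IkB kinases, the inhibitors are degraded, and the dimers enter the nucleus and bind kappaB sites. Several of the genes switched on in this way, including those for IkB proteins and ubiquitin-editing enzymes, limit the same pathway, and in injured liver NF-kB drives both inflammatory and survival genes.

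Total counts ranged from 16374082 to 30310479 per library, and the highest total was that of I/R+Rk2 replicate 1. The liver origin of the cells was visible in their transcripts, since all 10 hepatocyte markers were above the count filter. Together they came to 11549 to 12597 CPM, counts scaled to the library's total, with solvent and to 12392 to 12784 with Rk2. AFP and ALB made up most of this sum. Among the 10, APOB was higher with Rk2, with log2 fold change 0.61 (edgeR adjusted p = 0.0124), and FGB lower at -0.27 (edgeR adjusted p = 0.0462), in both cases without overlap of the groups. Of 8 leukocyte markers, PTPRC and CD163 were outside the table and CD3E and ITGAM reached at most 4 counts in any library. The list summed to 667 to 731 CPM with solvent and 633 to 725 with Rk2. Of the endothelial markers PECAM1 alone was in the table, at 8.34 to 10.0 CPM with solvent and 9.02 to 10.8 with Rk2. The 5 stellate markers found, without DES, summed to 19.7 to 23.5 and 19.0 to 22.1 CPM, with COL1A1 at no more than 17 and ACTA2 at no more than 2 counts.

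The kappaB consensus, the DNA motif that NF-kB dimers bind, was searched for on both strands of RefSeq promoter windows that ran from 250 bases before to 50 bases after each start (GRCh38.p14). The pattern was GGGRNNYYCC, in which R is A or G, Y is C or T and N is any base. A window was found for 7 of the 10 genes, and RELB, NFKBIE and IL18 had no entry. The consensus was present in windows of 5 genes, NFKB1, NFKB2, NFKBIA, TNFAIP3 and BIRC3, and no match was found in those of RELA and ICAM1. Sites that depart from this pattern were not searched for, so a window without a match may still hold a kappaB site. Of all 35116 windows 11.3% held a match, and of the 14692 windows of tested genes 13.3% did, beside 6 of the 11 windows of these genes. Counted by gene, 17.3% of tested genes with a window held a match, beside 5 of 7. A match describes these letters and is no measure of binding. The matches are shown because the 5 genes include both precursor subunits and 3 regulators of the pathway. Capitals mark the matched bases, each sequence is read 5′ to 3′ on the strand of its gene, and all lie before a listed start. One further match in NFKB2, 1 base on from the first and on the opposite strand, overlaps it and is not printed.
NFKB1, chr4:102501300-102501329, plus strand, 49 bases before the start: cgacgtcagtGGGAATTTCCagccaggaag
NFKB2, chr10:102394461-102394490, plus strand, 107 bases before a start: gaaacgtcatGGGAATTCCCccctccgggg
NFKB2, chr10:102394490-102394519, plus strand, 78 bases before the same start: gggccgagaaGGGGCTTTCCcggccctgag
NFKB2, chr10:102395519-102395548, plus strand, 176 bases before another start: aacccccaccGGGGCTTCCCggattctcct
NFKB2, chr10:102395674-102395703, plus strand, 21 bases before that start: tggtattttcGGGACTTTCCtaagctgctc
NFKBIA, chr14:35404811-35404840, minus strand, 81 bases before the start: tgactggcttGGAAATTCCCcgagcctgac
TNFAIP3, chr6:137867182-137867211, plus strand, 67 bases before the start: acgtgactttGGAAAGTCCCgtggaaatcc
TNFAIP3, chr6:137867194-137867223, plus strand, 55 bases before the start: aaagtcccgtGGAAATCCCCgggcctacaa
BIRC3, chr11:102317275-102317304, plus strand, 199 bases before the start: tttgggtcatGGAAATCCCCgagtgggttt
BIRC3, chr11:102317339-102317368, plus strand, 135 bases before the start: tattaccgctGGAGTTCCCCtaagtcctaa
None of the 5 genes with a match was called between the groups in the test described next, and RELA and ICAM1 were not called either. That test called 18.2% of all tested genes, so the lack of a call among 5 genes says little about genes with a match. With a correction for gene length and GC content, BIRC3 passed (edgeR adjusted p = 0.0450).

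Of the 10 genes, IL18 alone was lower in cells given Rk2, and no gene was higher. All 10 passed a filter that asked for 10 or more counts in 4 or more libraries and left 12910 genes, and differences were tested across all of them with edgeR's quasi-likelihood test and called at a Benjamini-Hochberg adjusted p below 0.05. With this rule 18.2% of all tested genes were called, 11.0% higher and 7.24% lower in I/R+Rk2, so 1 of 10 is no larger a share than in the table at large. IL18 was also the only member with an unadjusted p below 0.05, and DESeq2, which called 23.3% of all genes, called it alone. Limma on log2(FPKM + 1) called 9.56% of the genes it tested and none of the 10. With a further limit of a fold change above 1.5, which 3.04% of all genes passed, IL18 was still the 1 gene called. The median log2 fold change was -0.05 over the 10 genes and -0.002 over all tested genes. For 8 of the 9 genes that were not called, the 95% confidence interval lay within a 1.5-fold change in either direction. The exception was RELA.

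**Figure D1:**
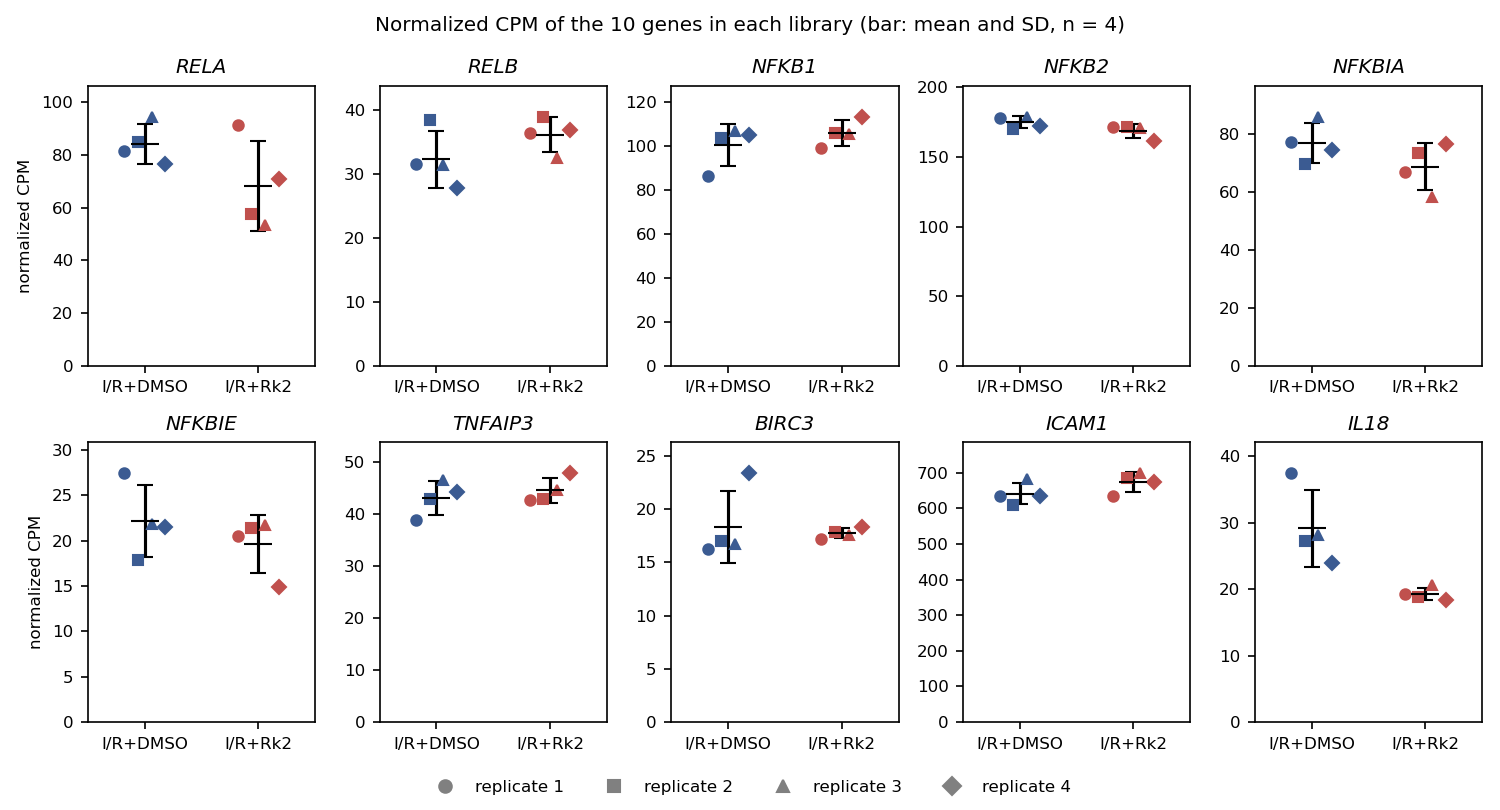
Normalized CPM (y axis, from 0) of each of the 10 genes in the 4 I/R+DMSO and 4 I/R+Rk2 libraries, with point shapes for the replicates and bars for the mean and SD. The groups overlap in every panel except that of IL18, in which all I/R+Rk2 libraries lie below all I/R+DMSO libraries.

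Among the subunits, RELA, which encodes the transactivating p65 of the classical dimer (ENSG00000173039.18, chr11:65653596-65663094, minus strand), varied most in cells given Rk2. Its normalized CPM was 81.4, 84.9, 94.5 and 76.6 in I/R+DMSO replicates 1 to 4 and 91.4, 57.6, 53.4 and 71.0 in I/R+Rk2 replicates 1 to 4. Replicate 1 of I/R+Rk2 lay within the I/R+DMSO values and the other 3 lay below all of them. The mean was 84.3 ± 7.56 with solvent and 68.3 ± 17.1 with Rk2 (SD, n = 4 each), and the log2 fold change was -0.30 (95% interval -0.68 to 0.08, adjusted p = 0.241 from edgeR). Without I/R+Rk2 replicate 1 the log2 fold change was -0.48 and passed the test (edgeR adjusted p = 0.0376). The deposited FPKM, a level per gene length and library size, gave another picture, with 53.6 ± 8.19 with solvent and 51.4 ± 5.72 with Rk2 (SD, n = 4 each) and a log2 fold change of -0.05 (adjusted p = 0.812, limma). The FPKM of RELA per unit of CPM ranged from 0.522 in I/R+DMSO replicate 1 to 0.913 in I/R+Rk2 replicate 2, a spread of 1.75-fold, against 1.25-fold for the median of 10714 genes. The part of this spread in the lower RELA counts was not tested.

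RELB, the partner of p52 in the non-canonical pathway (ENSG00000104856.13, chr19:45001430-45038198, plus strand), was at 31.4, 38.4, 31.3 and 27.8 CPM in I/R+DMSO and at 36.4, 38.8, 32.4 and 36.9 CPM in I/R+Rk2. The second I/R+DMSO library was nearly as high as the highest I/R+Rk2 library, and the groups overlapped. The means were 32.2 ± 4.44 and 36.1 ± 2.72 CPM (SD, n = 4 each), with a log2 fold change of 0.16 (95% interval -0.07 to 0.40, edgeR adjusted p = 0.300).

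NFKB1 encodes the precursor p105 of p50 (ENSG00000109320.11, chr4:102501329-102617302, plus strand). It was at 86.5, 103, 107 and 105 CPM in I/R+DMSO and at 99.2, 106, 105 and 113 CPM in I/R+Rk2. The first I/R+DMSO library stood below the other 7, which spanned 99.2 to 113 CPM. Rk2 and solvent differed by a log2 fold change of 0.07 (95% interval -0.10 to 0.25, edgeR adjusted p = 0.521), and without that library by 0.0092.

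NFKB2 encodes p100, which is processed to p52 and also retains RELB in the cytoplasm (ENSG00000077150.18, chr10:102394110-102402529, plus strand). It had the narrowest interval of the 10 genes. Its values were 178, 170.1, 179 and 173 CPM in I/R+DMSO and 172, 172, 171 and 162 CPM in I/R+Rk2, with means of 175 ± 4.25 and 169 ± 4.94 (SD, n = 4 each). The fold change was 0.966 with a 95% interval of 0.911 to 1.02 (edgeR adjusted p = 0.375), and its direction turned in FPKM, with a log2 fold change of 0.03 in limma.

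The inhibitor genes were lower on average in I/R+Rk2 with overlapping groups. NFKBIA, which encodes IkB-alpha, the inhibitor that NF-kB resynthesises after activation (ENSG00000100906.10, chr14:35401511-35404749, minus strand), was at 77.4, 69.7, 85.9 and 74.5 CPM in I/R+DMSO and at 66.8, 73.3, 58.3 and 76.7 CPM in I/R+Rk2. The log2 fold change was -0.16 (95% interval -0.38 to 0.06, edgeR adjusted p = 0.281), and the fourth I/R+Rk2 library was above the second and the fourth of I/R+DMSO. NFKBIE, which encodes IkB-epsilon (ENSG00000146232.16, chr6:44258166-44265788, minus strand), was at 27.4, 17.8, 21.8 and 21.5 CPM in I/R+DMSO and at 20.4, 21.4, 21.7 and 14.9 CPM in I/R+Rk2. Its highest value was in a library with solvent and its lowest in one with Rk2, and the log2 fold change was -0.17 (95% interval -0.54 to 0.19, edgeR adjusted p = 0.475). Leaving out the first of these, I/R+DMSO replicate 1, gave -0.06, and leaving out the other, I/R+Rk2 replicate 4, gave -0.07.

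The feedback regulators differed little on average. TNFAIP3 encodes A20, a ubiquitin-editing enzyme that shuts off signalling from TNF and Toll-like receptors (ENSG00000118503.14, chr6:137867188-137883312, plus strand). It was at 38.8, 42.8, 46.6 and 44.2 CPM in I/R+DMSO and at 42.7, 42.9, 44.5 and 47.8 CPM in I/R+Rk2, so that the log2 fold change was 0.04 (95% interval -0.11 to 0.20, edgeR adjusted p = 0.687). BIRC3 encodes cIAP2, a ubiquitin ligase at the TNF receptor (ENSG00000023445.13, chr11:102317450-102339403, plus strand). It was at 16.3, 17.0, 16.7 and 23.4 CPM in I/R+DMSO and at 17.2, 17.8, 17.5 and 18.4 CPM in I/R+Rk2. The fourth I/R+DMSO library was above every other library, and the 4 libraries given Rk2 lay within a range of 17.2 to 18.4 CPM. The log2 fold change was -0.05 (95% interval -0.32 to 0.22, edgeR adjusted p = 0.807) and 0.09 without that library. With a joint correction for gene length and GC content it was -0.32 with an adjusted p of 0.0450 in edgeR.

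Of the outputs, ICAM1, the adhesion molecule that leukocytes bind on activated cells (ENSG00000090339.8, chr19:10270835-10286615, plus strand), was the most abundant of the 10 genes. Its values were 635, 610.5, 683 and 636 CPM in I/R+DMSO and 636, 686, 698 and 675 CPM in I/R+Rk2. The highest I/R+DMSO library was above 2 of the I/R+Rk2 libraries, and the log2 fold change was 0.07 (95% interval -0.04 to 0.18, edgeR adjusted p = 0.317). Exons of the antisense gene AC011511.5 cover 22.0% of the exon bases of ICAM1, and whether counting used strand is not given in the sources used here.

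IL18 encodes a cytokine of the interleukin-1 family that is made as an inactive precursor (ENSG00000150782.11, chr11:112143251-112164117, minus strand). It had 705, 578, 512 and 509 reads in I/R+DMSO and 586, 355, 340 and 364 reads in I/R+Rk2. After normalization these were 37.5, 27.2, 28.2 and 23.9 CPM with solvent and 19.2, 18.8, 20.6 and 18.4 CPM with Rk2. Every I/R+Rk2 library was below every I/R+DMSO library, a separation of the groups that 28.3% of all tested genes showed in one direction or the other. Its mean was 29.2 ± 5.81 CPM with solvent and fell to 19.3 ± 0.938 with Rk2 (SD, n = 4 each), for a log2 fold change of -0.60 (SE 0.131, 95% interval -0.90 to -0.30, edgeR adjusted p = 0.0175) or a fold of 0.660. In bulk RNA, less IL18 transcript in each cell and fewer cells with the transcript cannot be told apart.

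The fall of IL18 was smaller in FPKM and there missed the threshold. Its FPKM was 25.7, 19.2, 16.9 and 16.8 in I/R+DMSO and 14.0, 14.0, 15.0 and 13.9 with Rk2. The groups were again apart, and a two-sided exact permutation test on the 8 values gave p = 0.0286 in CPM and in FPKM, the smallest that 4 libraries against 4 allow. The log2 fold change in limma on log2(FPKM + 1) was -0.42 with an adjusted p of 0.0707. The first I/R+DMSO library was the highest for IL18 in both tables and had the lowest weight of the 8 in limma's voom, 0.373 against 0.906 to 1.43 for the others. Without it the log2 fold change was -0.46 (edgeR adjusted p = 0.00940), and without I/R+Rk2 replicate 4 it was -0.58 and just outside the threshold (edgeR adjusted p = 0.0525).

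**Figure D2:**
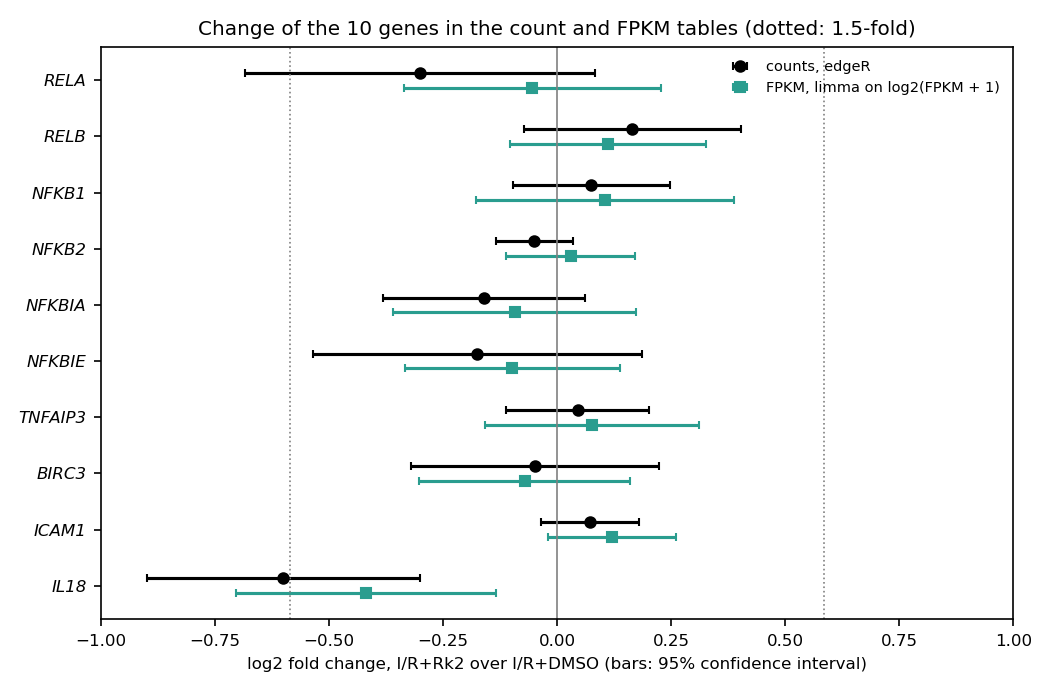
Log2 fold change of I/R+Rk2 over I/R+DMSO for the 10 genes, from edgeR on counts (black circles) and from limma on log2(FPKM + 1) (green squares), with 95% confidence intervals and dotted lines at 1.5-fold. IL18 is the only gene with intervals below 0 in both tables, and RELA is at -0.30 in counts and at -0.05 in FPKM.

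Levels between genes were compared per length, as mean FPKM over the 8 libraries. ICAM1 led at 210 ± 14.6 (SD, n = 8), the 316th highest level of all genes, and BIRC3 was last at 3.49 ± 0.416. Between them came NFKB2 at 62.0, RELA at 52.5, NFKBIA at 45.0, NFKB1 at 30.5, IL18 at 16.9, RELB at 13.9, TNFAIP3 at 10.3 and NFKBIE at 9.53 FPKM. The ranges of neighbours in this order overlapped for NFKB2 and RELA, RELA and NFKBIA, NFKB1 and IL18, IL18 and RELB, and TNFAIP3 and NFKBIE. The gaps from ICAM1 to NFKB2, NFKBIA to NFKB1, RELB to TNFAIP3 and NFKBIE to BIRC3 were the ones at which the ranges of the 8 libraries did not overlap, with the highest TNFAIP3 library at 11.76 and the lowest RELB library at 11.82 FPKM. The transcripts of the precursor subunits, RELA and NFKBIA were all more abundant per length than those of RELB and of either feedback regulator.

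**Figure D3:**
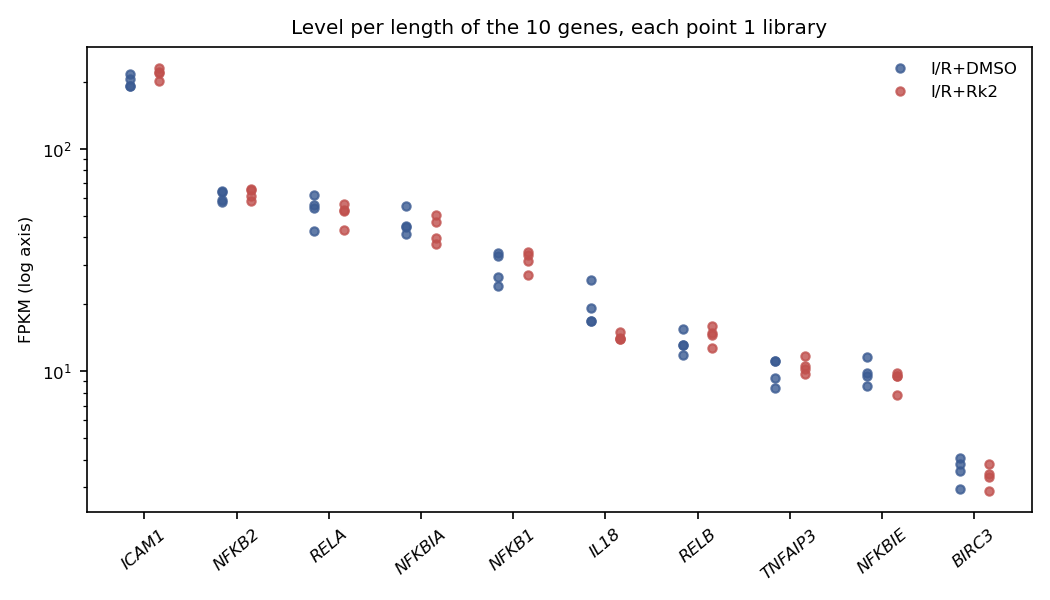
FPKM (log axis) of the 10 genes in order of their mean, with 1 point per library, blue for I/R+DMSO and red for I/R+Rk2. ICAM1 stands apart at the top and BIRC3 at the bottom, and the blue and red points of each gene mix except those of IL18.

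Ratios of counts between 2 genes in the same library do not depend on how libraries are scaled, and 4 were compared. RELB per RELA was 0.386, 0.452, 0.331 and 0.363 in I/R+DMSO and 0.398, 0.675, 0.607 and 0.520 in I/R+Rk2. The first I/R+Rk2 library lay among the I/R+DMSO values and the other 3 above them. The log2 difference was 0.50 (exact two-sided permutation p = 0.0571, 0.171 adjusted over the 4 ratios), and 0.18 when taken from FPKM. The smallest p that this permutation test allows with 4 libraries against 4 is 0.0286. A ratio that alone reached it would still miss the threshold of 0.05 after adjustment over the 4 ratios. The adjusted values therefore cannot decide whether any ratio by itself differed.

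NFKBIA per NFKB1, an inhibitor against a subunit, was 0.894, 0.674, 0.803 and 0.708 in I/R+DMSO and 0.673, 0.693, 0.552 and 0.677 in I/R+Rk2. The log2 difference was -0.24 (exact two-sided permutation p = 0.0857, adjusted 0.171), with an overlap of the groups at their nearest values. NFKB2 per NFKB1 was 2.06 in the first I/R+DMSO library and 1.64 to 1.67 in the other 3, and 1.43 to 1.73 with Rk2, a log2 difference of -0.13 (exact two-sided permutation p = 0.314, adjusted 0.419) and of -0.05 without that first library. NFKBIE per NFKBIA spanned 0.254 to 0.354 with solvent and 0.195 to 0.372 with Rk2, a log2 difference of -0.01 (exact two-sided permutation p = 0.943, adjusted 0.943).

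**Figure D4:**
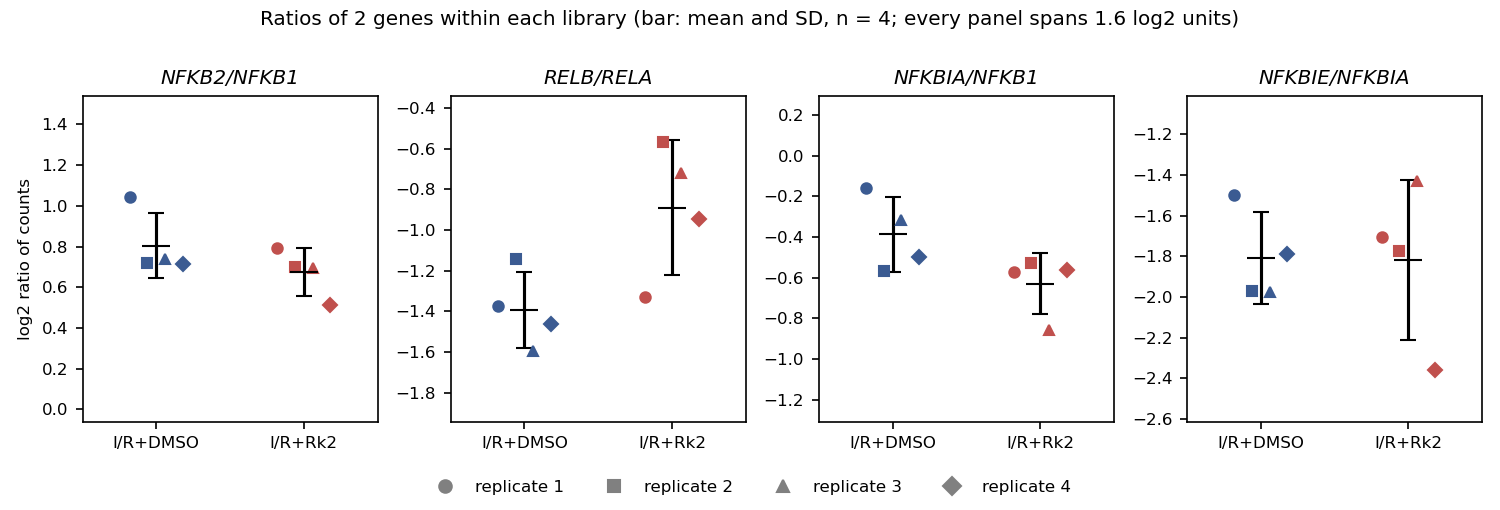
Log2 ratio of the counts of 2 genes within each library, with point shapes for the replicates and bars for the mean and SD (n = 4), each panel spanning the same 1.6 log2 units. The groups overlap in all 4 panels, and the mean difference is largest for RELB per RELA, at 0.50.

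The wider pathway was described by 95 other genes in 6 lists by role, of which 78 passed the count filter. Of these, 9 were higher and 12 lower in I/R+Rk2, which is 26.9% against 18.2% of all tested genes. Their median log2 fold change was -0.01. The lower calls dropped to 7, 6, 7 and 7 without I/R+Rk2 replicate 1, 2, 3 and 4 in turn, and the higher calls to 4 without replicate 2 or replicate 4. Calls over all tested genes also dropped in these fits, from 2352 to 1664, 1467, 1510 and 1293 in the same order. Beyond the leading genes of each list by p, called genes are named below after their values were seen.

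Of 15 receptors, 8 were tested and 1 was called in edgeR, or 12.5% beside 18.2% of all tested genes. TNFRSF11A, the receptor RANK, was lower with Rk2, at 2.90 ± 0.268 CPM against 4.65 ± 0.419 with solvent (SD, n = 4 each), with log2 fold change -0.68 (edgeR adjusted p = 0.00665). Its FPKM showed no such fall, with a log2 fold change of 0.02 in limma. The other 7 were not called in edgeR, among them TNFRSF1A, the main TNF receptor, and IL1R1. In limma on log2(FPKM + 1), IL1R1 was the only receptor called, at a log2 fold change of 0.53 (adjusted p = 0.0214). CD40 and TLR1 were outside the count table, and TNFRSF1B, IL18R1, a chain of the IL-18 receptor, TLR2, TLR5 and TLR6 were below the filter.

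Of the adaptors and kinases 9 of 21, or 42.9% beside 18.2% of all tested genes, were called in edgeR, in both directions. Limma on log2(FPKM + 1) called 4 of them. Without I/R+Rk2 replicate 4, 6 of the 9 calls were lost, and calls over all tested genes fell from 2352 to 1293. TAB3, a subunit of the TAK1 kinase complex, was at 34.5, 40.8, 37.4 and 44.9 CPM in I/R+DMSO and at 57.0, 55.9, 56.6 and 63.2 CPM in I/R+Rk2. It was higher in every library given Rk2, for a log2 fold change of 0.56 (edgeR adjusted p = 0.00478). MYD88, the adaptor of the Toll-like, interleukin-1 and IL-18 receptors, fell from 91.1 ± 4.82 to 75.4 ± 1.53 CPM (SD, n = 4 each), with log2 fold change -0.27 (edgeR adjusted p = 0.00788), and was not called in FPKM (limma adjusted p = 0.0601). IKBKE, an IkB kinase relative, fell from 28.0 ± 1.83 to 22.0 ± 1.02 CPM (SD, n = 4 each), with log2 fold change -0.35 (edgeR adjusted p = 0.0104).

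The other called adaptors and kinases were TRAF3, IRAK2, MAP3K7, which encodes TAK1, and TBK1, all higher, and TRAF2 and TAB1, both lower. All 6 lost their call without I/R+Rk2 replicate 4 (edgeR adjusted p = 0.0525 to 0.115), TAB1 lost it in 7 of the 8 leave-outs, and MAP3K7 dropped to a log2 fold change of 0.09 (edgeR adjusted p = 0.363) with the length and GC correction. TRAF3, which restrains the non-canonical pathway, had the largest fold change of the list, with 16.5, 20.4, 20.7 and 14.0 CPM in I/R+DMSO and 47.1, 19.7, 47.1 and 51.7 CPM in I/R+Rk2. The second I/R+Rk2 library lay among those with solvent. TRAF3 had a log2 fold change of 1.21 (edgeR adjusted p = 0.0277) but 0.25 in limma on log2(FPKM + 1), where it was not called. It also lost its call without any of the libraries except I/R+Rk2 replicate 2, at adjusted p-values up to 0.0748 in edgeR. The kinases that release NF-kB, CHUK, IKBKB and their scaffold IKBKG, and MAP3K14 of the non-canonical pathway, were not called.

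Of the 11 genes of the ubiquitin machinery, ITCH alone was called in edgeR, or 9.09% beside 18.2% of all tested genes. ITCH is a ubiquitin ligase that acts with A20, and it rose from 113 ± 7.54 to 139 ± 3.56 CPM (SD, n = 4 each), with log2 fold change 0.31 (edgeR adjusted p = 0.00782). Among the alternatives ITCH lost its call only with the length and GC correction, at a log2 fold change of 0.12 (edgeR adjusted p = 0.0900). The genes of the linear ubiquitin ligase (RNF31, RBCK1 and SHARPIN), CYLD and BTRC were not called in edgeR. RBCK1 was called higher in DESeq2 and in limma on log2(FPKM + 1), and TNIP1 lower in the latter, both named after their values were seen. None of the 5 other Rel and IkB genes (REL, NFKBIB, NFKBID, NFKBIZ and BCL3) was called in edgeR, DESeq2 or limma on log2(FPKM + 1), beside 18.2%, 23.3% and 9.56% of all genes tested. With 5 genes this is not far from those shares. Of the 5, 2 had an unadjusted p below 0.05 in edgeR. BCL3, a nuclear IkB protein, was closest, with log2 fold change -0.16 (edgeR adjusted p = 0.0928), followed by REL at 0.42 (edgeR adjusted p = 0.135).

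Of 34 other NF-kB targets, 27 were tested and 8 were called in edgeR, or 29.6% beside 18.2% of all tested genes. Of the called genes 7 fell, where 7.24% of all tested genes were lower, and CSF1 alone rose. The median log2 fold change of the tested targets was -0.20. CSF1 lost its call in limma on log2(FPKM + 1), with upper-quartile scaling and after the length correction, not after the length and GC correction. CXCL8, a neutrophil chemokine, was at 267, 259.8, 265 and 253 CPM in I/R+DMSO and at 211, 218, 226 and 211 CPM in I/R+Rk2, with log2 fold change -0.27 (edgeR adjusted p = 0.00318). CXCL1, a chemokine of the same receptor, fell from 70.3 ± 2.84 to 55.1 ± 1.53 CPM (SD, n = 4 each), with log2 fold change -0.35 (edgeR adjusted p = 0.00249). SAA1, an acute-phase protein, was low and fell from 3.78 ± 0.438 to 2.15 ± 0.353 CPM (SD, n = 4 each), with log2 fold change -0.80 (edgeR adjusted p = 0.0114), and its near-identical paralog SAA2 makes its reads uncertain. The other targets called lower in edgeR were IER3, LTB, IL32 and SDC4, and each lost its call in limma on log2(FPKM + 1) and after the length and GC correction. LTB lost it without any 1 of the 8 libraries and in DESeq2 (adjusted p = 0.0969), and IER3 without any 1 library except I/R+Rk2 replicate 1. TNF, at 0 to 13 counts, IL1B and SELE were below the filter, and VCAM1, CCL2, IL6 and NOD2 were outside the count table. Of the targets not called in edgeR, BCL2A1 and PTGS2 lay furthest from 0, with log2 fold changes of -1.69 on 0 to 15 counts and 0.87 on 22 to 113 counts, and were named after their values were seen. PTGS2 was called higher in DESeq2 (adjusted p = 0.0270).

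Of the 9 genes that process or bind IL-18, 6 were tested and 2 were called in edgeR, both higher, or 33.3% beside 18.2% of all tested genes. IL18BP, which encodes the secreted protein that neutralises IL-18, was at 5.05, 5.79, 6.61 and 5.25 CPM in I/R+DMSO and at 11.9, 10.8, 7.44 and 13.7 CPM in I/R+Rk2, all above those with solvent. Its log2 fold change was 0.95 (edgeR adjusted p = 0.0114). In FPKM the groups overlapped, from 1.12 to 2.59 in I/R+DMSO and from 2.41 to 3.01 in I/R+Rk2, and the log2 fold change in limma was 0.30 (adjusted p = 0.258). Exons of NUMA1 on the opposite strand share 15.6% of the exon bases of IL18BP. NUMA1 had a mean of 1494.5 counts, against 95 to 364 counts for IL18BP in the 8 libraries. Whether counting used strand is not given, and the part of NUMA1 reads in the IL18BP counts was not tested. Reads of IL18 per read of IL18BP, a ratio chosen after the values were seen and not tested, were 7.42, 4.70, 4.27 and 4.54 in I/R+DMSO and 1.61, 1.74, 2.76 and 1.34 in I/R+Rk2. CASP1, the protease that matures IL-18, was tested and not called, PYCARD was below the filter, and NLRP3 and AIM2 were outside the count table.

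**Figure D5:**
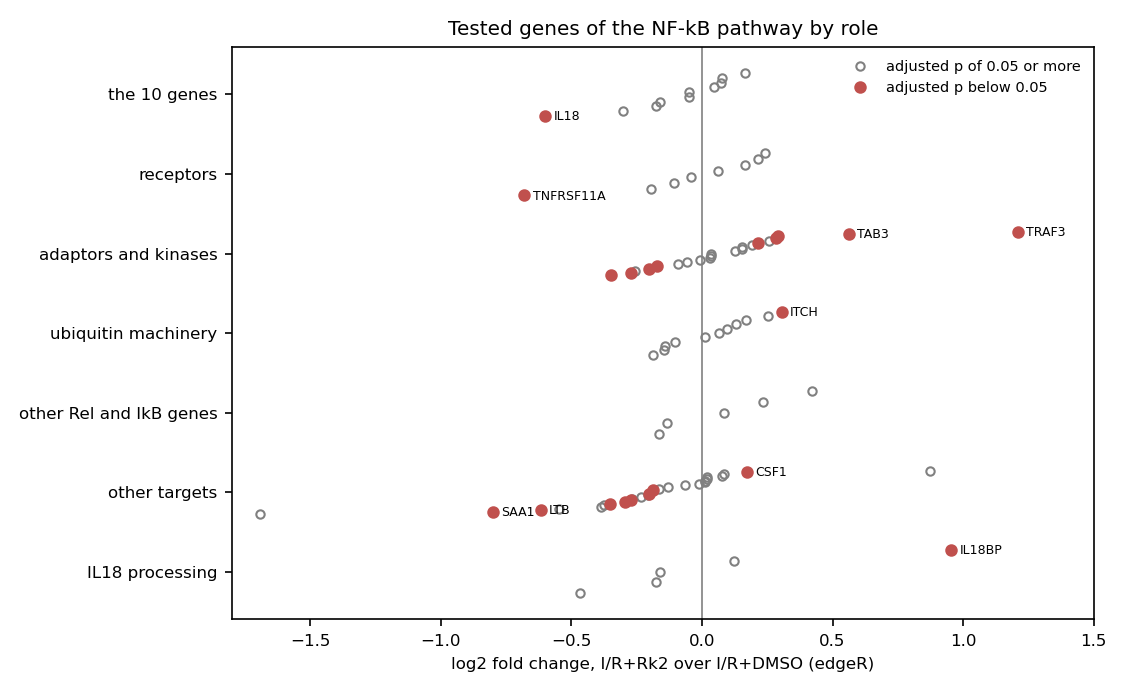
Log2 fold change (x axis, I/R+Rk2 over I/R+DMSO, edgeR) of tested genes of the pathway, 1 point per gene, in rows by role, with filled red points for adjusted p below 0.05 and open points for the rest. Red points lie on both sides of 0 for adaptors and kinases, 7 of 8 lie below 0 for the other targets, and 1 of the 10 leading genes, IL18, is red.

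Across genes the log2 fold change was related to gene length (Spearman's rho 0.335) and to GC content (rho -0.331, 12692 genes), and genes are not independent replicates. The 21 called pathway genes were therefore followed through corrected fits. All 21 kept their direction in each, and 17 were still called after a length correction and 11 after a length and GC correction. In limma on log2(FPKM + 1), 20 kept their direction, TNFRSF11A being the exception, and 8 were still called. IL18 was still called in both corrected fits, with log2 fold change -0.52 (edgeR adjusted p = 0.0159) and -0.61 (edgeR adjusted p = 0.0111).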

How the data were processed

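The authors deposited raw read counts per gene, without normalization, and FPKM, which they normalized for gene length and library size. The submitters' processing notes name FastQC 0.11.5, HISAT2 2.2.1, StringTie 1.3.3 and build hg38. The annotation, counting tool and strand setting are not given in the sources used here. Symbols turned into dates (22 count rows, 0.111% of counts, and 27 FPKM rows) and 35 FPKM rows with repeated symbols were left out.

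Groups came from the deposited labels. Genes needed 10 or more counts in 4 or more libraries, and counts were TMM-normalized and tested with edgeR 4.0.16 (robust quasi-likelihood, group as the only term, Benjamini-Hochberg over all genes) in R 4.3.3. Alternatives used limma 3.58.1 on FPKM with a pseudocount of 1 or 0.1 and a mean FPKM of at least 0.5, voom, DESeq2 1.42.0, other scalings and filters, a replicate block, loess corrections (span 0.5) for length and GC content, and each library left out. Normalized CPM are TMM-scaled. Fold changes from FPKM are on the log2(FPKM + pseudocount) scale and understate those of low genes. Lengths, GC content, positions and exon overlaps came from GENCODE v29 (GRCh38), promoters from RefSeq. Permutation tests were exact and two-sided over 70 splits.

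The 10 genes and the lists were chosen with earlier results of these data known. All 10 are given in full. In each other list the text names the 3 genes with the smallest edgeR p, or all called genes if fewer than 3 passed, and genes outside the test. A few listed genes are counted but not reported here. In 10 simulated sets of 12779 to 12800 genes for this comparison, the edgeR test recovered 43 to 62 of 100 changes of 0.6 log2 units and 72 to 90 of 100 changes of 1 unit, with 4 to 16 false calls. Only these genes were changed, all with a mean above 1 CPM, a far smaller share than the 18.2% called in the data. The threshold depends on that share, so these rates need not hold for the data.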

Additional observations from a re-analysis of the deposited data

Results flagged for a closer look

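In 5 of the 28 sets of 4 values examined, 1 library stood far from the other 3, with its gap to the nearest of them as a share of the whole range above Dixon's 95% critical value. Chance gives this in about 1 of 20 such sets. NFKB1 was at 86.5 CPM in I/R+DMSO replicate 1 and at 103 to 107 CPM in the other I/R+DMSO libraries, a share of 0.830. The same library had the log2 ratio of NFKB2 to NFKB1 at 1.04 against 0.71 to 0.74, a share of 0.918. NFKB2 was at 162 CPM in I/R+Rk2 replicate 4 and at 171 to 172 CPM in the others of its group, a share of 0.913. BIRC3 was at 23.4 CPM in I/R+DMSO replicate 4 and at 16.3 to 17.0 CPM in the others, a share of 0.895. The log2 ratio of NFKBIA to NFKB1 was -0.86 in I/R+Rk2 replicate 3 and -0.57 to -0.53 in the others, a share of 0.874.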

How the results depend on the processing

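Of 802 alternative values, 615 kept their direction and side of the threshold (or, for counts, stayed within 1.5 times), 146 lost the call, 2 gained it, 28 counts moved by more and 11 changed sign. The 802 include values for the 4 ratios. No ratio could pass the threshold by itself, so only its direction is informative there. The genes called among all tested were 2352 and became 1133, 1120 and 1001 in limma on FPKM (pseudocount 1, 0.1, and 1 without a filter), 1558 with a replicate block and length correction, 393 above 1.5-fold and 1293 to 2287 with a library left out. The members called lower were 1 and became 0 in all 3 limma fits, 2 with the length and GC correction and 0 to 2 with a library left out. The pathway genes called lower were 12 and became 5, 5 and 4 in limma, 7 with the length and GC correction, 7 with the block and length correction, 3 above 1.5-fold and 6 to 10 with a library left out. Those called higher were 9 and became 5 with the block and length correction, 2 above 1.5-fold and 4 to 8 with a library left out. The causes were not tested. Higher genes were 60.2% of all calls, 48.8% with upper-quartile scaling, 70.6% with library size only, 72.2% in limma on FPKM, 47.8% after the length correction and 45.3% after the length and GC correction.

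Signs changed for NFKB2, to 0.0296, 0.0301 and 0.0296 in the limma fits and 0.0153 with the length and GC correction, for TNFAIP3, to -0.0026 without I/R+DMSO replicate 1 (-0.0026 to 0.0836 with any library left out), for BIRC3, to 0.0905 without I/R+DMSO replicate 4 (-0.10 to 0.0905), and for TNFRSF11A, to 0.0246, 0.0715 and 0.0246 in limma. The log2 ratio of NFKBIE to NFKBIA ranged from -0.14 to 0.171 with a library left out, at 0.0939 without I/R+DMSO replicate 1 and at its highest without I/R+Rk2 replicate 4. The log2 fold change of IL18 then ranged from -0.69 to -0.46. The adjusted p of IL18 ranged from 0.00055 to 0.0961 over its alternatives with all libraries and from 0.00940 to 0.0525 with a library left out. Deviations of same-numbered libraries of the 2 groups correlated at -0.0095 to 0.085, and those of differently numbered libraries at -0.148 to 0.077. Whether same-numbered libraries were paired is not given in the labels. A replicate block called 1815 genes, 6 pathway genes higher and 8 lower, and IL18 alone of the members (log2 fold change -0.58, adjusted p = 0.0343, edgeR). Genes below the count filter were not tested, and depth was not varied.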
